A study of Mus musculus with 52 samples.

Results

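The non-ciliated Wdr60 mutant clone was compared directly with the non-ciliated Wdr34 mutant clone, using 4 RNA sequencing libraries of each, 8 of the 52 libraries of the series. The members are these 8 libraries, chosen by their sample labels, and no control library entered the fit. Both clones are mouse Cilia-APEX-IMCD3 cells, a kidney line from the inner medullary collecting duct that carries a cilium-targeted APEX peroxidase. In each clone 1 dynein-2 intermediate chain gene had been edited with the cytosine base editor BE4-Gam and a guide expressed from BPK1520, and edited cells were grown up from single sorted cells. The labels call both genotypes homozygous mutant and give 10% FBS for every library. The study gives the Wdr60 allele as p.Ala911Val, with an additional heterozygous synonymous change. It left its other Wdr34 allele out of the non-ciliated analysis, so the Wdr34 clone is taken here as p.Arg183Trp. The 4 non-ciliated control clones (1, 2, 3 and AB) are used here only to show where the levels of the 2 mutants lie. The study's methods describe control cells as given BE4-Gam with an empty BPK1520 vector and do not name the clones. Each genotype is 1 clone and the study describes its libraries as technical replicates, so p-values measure the spread between libraries, and genotype and clone cannot be told apart.

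Cilia are built and maintained by intraflagellar transport (IFT), in which kinesin-2 carries cargo towards the tip and cytoplasmic dynein-2 carries it back to the cell body. Wdr34 and Wdr60 are the paired, non-identical intermediate chains of dynein-2. They sit together in the same motor complex, hold the light chains and join them to the heavy chain Dync2h1. Loss of either is known to disturb retrograde transport and hedgehog signalling, a pathway that runs through the cilium, and variants in both human genes cause skeletal ciliopathy.

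The guides are shown because they define the 2 edits that are being compared, each printed 5′ to 3′ with its PAM, the cytosine to be converted in capitals.
Wdr34 guide: tggtCggtgagtgagagcttgg
Wdr60 guide: cctgCagtgttcctggtccagg
The marked cytosine is base 5 of each guide, counted from 1 at the 5′ end. The Wdr60 guide matched the gene's own strand in full within exon 21 of 22 of transcript ENSMUST00000039349.7, at chr12:116211807-116211828 on the minus strand (GRCm38). Its marked cytosine, at position 116211824, is base 2 of codon 911 (gca, alanine), which reads gta (valine) with a T. Of the Wdr34 guide, the first 6 bases matched the end of exon 3 of 9 of ENSMUST00000113711.2, at chr2:30034763-30034768 on the minus strand, and the remaining bases would run past that exon end. The marked cytosine, at position 30034764, is base 1 of codon 183 (cgg, arginine), which reads tgg (tryptophan) with a T. Deposited counts carry no base calls, so the edits themselves were not examined.

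Library totals were 16092399 to 17736190 counts in Wdr60 and 16442600 to 20505629 in Wdr34, so that 1 CPM (the count scaled to library size, with TMM factors) corresponds to about 15.9 to 19.8 counts. Wdr60 replicate 1 stood apart from its clone. Its log2 CPM correlated with the other Wdr60 libraries at Pearson r = 0.978 to 0.980 across genes, against 0.997 among those 3 libraries and 0.996 to 0.997 among the 4 Wdr34 libraries. In that library 260 genes lay at least 2-fold from the mean of its 3 sister libraries, against 0 to 6 in the other 7 libraries. Its deviation followed transcript GC content (Spearman rho = -0.70 across 10867 genes). Those of Wdr60 replicates 2 to 4 had positive rho (0.50, 0.50 and 0.61), but the sister mean of each includes replicate 1. These values therefore do not show a GC deviation of their own. Wdr34 replicate 4 had rho = -0.44. The other Wdr34 libraries had rho of 0.08 to 0.32. The contrast itself correlated with GC content at rho = 0.06 with all 8 libraries and 0.24 without Wdr60 replicate 1. The level of Rn45s, a ribosomal RNA precursor, was 828 CPM in Wdr60 replicate 1 against 3584 to 9391 CPM in replicates 2 to 4. Counts of called genes that changed when this library was left out are therefore also given without it. Among the control clones, AB replicate 1 also stood apart, with a mean r of 0.967 against 0.986 to 0.987 for its sister libraries.

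Kidney epithelial markers were detected in both clones. The values below compare the clones and do not settle the identity of the cells. Of 22 kidney epithelial markers 18 passed the expression filter, and 0 of them were called at the thresholds used here, beside 5.62% of all tested genes, although 12 had an adjusted p under 0.05, beside 39.3%. Ehf, an epithelial transcription factor, was called lower without Wdr60 replicate 1 (log2 -1.15, against -0.85 with all 8 libraries). Their summed level was 3961 to 4176 CPM in the Wdr60 libraries and 3899 to 3953 CPM in the Wdr34 libraries. Krt18, a keratin of simple epithelia, stood at 673 ± 18.6 CPM in Wdr60 and 807 ± 8.02 CPM in Wdr34 (mean ± SD, n = 4 here and below). The water channel Aqp2 and the vasopressin receptor Avpr2, which define principal cells of the collecting duct in vivo, had 1 and 0 counts over all 8 libraries. Markers of endothelium and leukocytes were sparse. Pecam1 and Cdh5 of endothelium had 1 count each in all, while Kdr had 0, and only Egfl7 of 12 endothelial markers passed the filter. Adgre1, Cd3e and Itgam of leukocytes had 0 counts, although 26 and 28 counts of Ptprc were found in Wdr60 and Wdr34. Of 12 leukocyte markers 2 passed the filter, Cd68 (log2 0.24, BH-adjusted p = 0.329 in edgeR) and the receptor Csf1r, which was higher in Wdr60 by less than 2-fold (27.1 ± 4.01 against 15.5 ± 2.15 CPM, BH-adjusted p = 8.15e-04). The summed level of the list was therefore 26.7 to 35.4 CPM in Wdr60 and 15.3 to 20.5 CPM in Wdr34. Of 22 mesenchymal markers 12 were tested. The summed level of that list was 3633 to 4510 CPM in Wdr60 and 3841 to 4078 CPM in Wdr34, and its genes are described below.

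A gene counts as called here if it differed at least 2-fold (log2 of 1) between the clones with p under 0.05 in the edgeR quasi-likelihood test, adjusted by Benjamini-Hochberg (BH) over all tested genes. Log2 fold changes are positive when the level was higher in Wdr60. Of 11698 genes tested, 658 (5.62%) were called. More genes were higher in Wdr60, 430 (3.68%), than were lower, 228 (1.95%). Without Wdr60 replicate 1 there were 739 (6.27%), of which 483 were higher and 256 lower, with 406 and 207 genes shared with the calls of all 8 libraries. Most differences were small. The median log2 fold change over all tested genes was 0.01 and its median size 0.23, while an adjusted p under 0.05 alone, at any fold, took in 4602 genes (39.3%), or 7230 (61.3%) without Wdr60 replicate 1. A difference of at least 4-fold was found for 127 higher and 73 lower genes, at least 8-fold for 63 and 42, and at least 32-fold for 18 and 16. The called genes were mostly of low abundance. Their median level in the clone where they were higher was 4.95 CPM for the higher and 6.89 CPM for the lower genes, and 146 and 96 of them reached 10 CPM. In 411 of the 430 higher and 222 of the 228 lower genes, the 4 libraries of one clone did not overlap the 4 of the other, which the call itself nearly fixes. The libraries did not overlap for 4750 of all 11698 tested genes (40.6%), beside the 5.62% that were called.

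**Figure D1:**
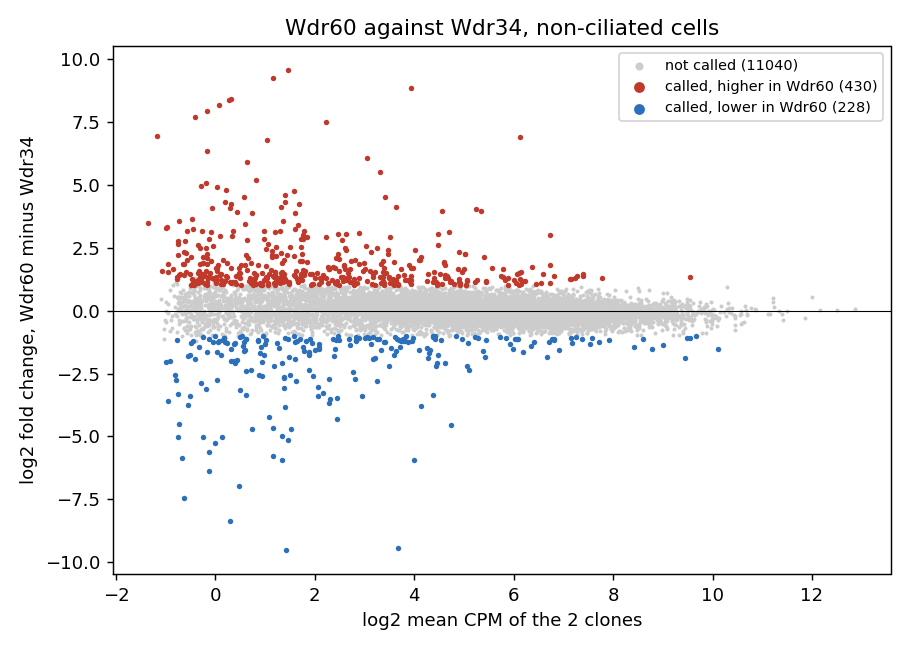
Log2 fold change (Wdr60 minus Wdr34, y axis) against the log2 mean CPM of both clones (x axis) for the 11698 tested genes, 1 point per gene. Red points are the 430 genes called higher and blue points the 228 called lower in Wdr60, and the differences of at least 32-fold lie mostly at low to middle abundance.

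To set this number beside differences between clones without a targeted edit, the same fit was run for each of the 6 pairs of non-ciliated control clones. It called 1532 genes (13.0%) between controls 1 and 2, 738 (6.22%) between 1 and 3, 1099 (9.22%) between 1 and AB, 1726 (14.3%) between 2 and 3, 1977 (16.4%) between 2 and AB and 867 (7.19%) between 3 and AB. At these thresholds and with all 8 libraries, the 2 mutant clones differed in fewer genes (658) than any of these pairs. Without Wdr60 replicate 1 the count was 739, against 738 for the closest control pair. Leaving AB replicate 1 out of its 3 pairs gave 1181, 2070 and 925 genes. The order of the pairs by adjusted p alone changed with the 2 libraries that stood apart. At that threshold the mutants differed in 4602 genes (7230 without Wdr60 replicate 1) and controls 3 and AB in 3857 (6771 without AB replicate 1). Differences between these counts were not tested.

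The levels of the called genes in the control clones show which mutant departs from them, here and below by the means of the clones. Of the 430 genes higher in Wdr60, the Wdr60 mean alone lay outside the range of the 4 control clone means for 165, and the Wdr34 mean alone for 93. The mutants lay on opposite sides of the control range for 55 genes and on the same side for 12, while for 105 genes both lay within it. Among the 228 genes lower in Wdr60 these counts were 94, 32, 24, 20 and 58. Over all 11698 tested genes they were 2328, 2175, 412, 1468 and 5315. So about 1 in 4 called genes (105 of 430 and 58 of 228) separated the mutants while each mutant remained within the spread of the control clones.

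The genes with the largest difference among those of at least 10 CPM were led, on the higher side, by Serpinh1, Arnt2, Ripk3, E2f6 and Rcn1. Serpinh1 (chr7:99345375-99353239) encodes Hsp47, the collagen chaperone of the endoplasmic reticulum. It measured 122, 148, 145 and 143 CPM in Wdr60 replicates 1 to 4 and 1.11, 1.27, 1.20 and 1.09 CPM in the Wdr34 libraries. All Wdr60 libraries were far above all Wdr34 libraries, a 119-fold difference (log2 6.89 ± 0.11 SE, edgeR BH-adjusted p = 2.22e-10). The control clones did not share 1 level, with means of 121, 146 and 118 CPM in controls 1, 2 and AB and 0.485 CPM in control 3, so that the Wdr34 clone and control 3 were both low.

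Arnt2 (chr7:84246274-84411741), a bHLH-PAS transcription factor, measured 27.8, 36.2, 30.4 and 27.2 CPM in Wdr60. In Wdr34 it was at 0.0616, 0.0506, 0 and 0.121 CPM, which are 4 counts in all, and the 4 control clones ranged from 24.4 to 47.9 CPM. Here the Wdr34 clone alone was low. A necroptosis kinase, Ripk3 (chr14:55784995-55788857), had 14.4, 15.7, 15.5 and 19.6 CPM in Wdr60 and 0.123, 0.202, 0.441 and 0.182 CPM in Wdr34 (67.6-fold, log2 6.08 ± 0.24, BH-adjusted p = 1.91e-07). Control 3 (1.68 CPM) lay between the mutants and the other controls (11.2 to 18.4 CPM) were near Wdr60. E2f6, a repressor of the E2F family, was at 19.5 ± 0.929 CPM in Wdr60 and 0.435 ± 0.222 CPM in Wdr34 (log2 5.50 ± 0.21, BH-adjusted p = 1.43e-07). Control clones stood between them, at 3.39 to 10.7 CPM. Rcn1, a calcium-binding protein of the endoplasmic reticulum, showed the other pattern. It was at 22.5, 20.5, 19.6 and 18.8 CPM in Wdr60, at 0.888 ± 0.153 CPM in Wdr34 and at 0.112 to 4.52 CPM in the controls, so that Wdr60 lay above all other clones.

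The other 7 genes of this group rose by 8.25-fold to 17.6-fold over Wdr34. Kcnh2, the hERG potassium channel, measured 16.4, 27.9, 23.9 and 25.4 CPM in Wdr60 and 1.33 ± 0.351 CPM in Wdr34 (BH-adjusted p = 1.08e-06), with Wdr60 above the control clones (0.184 to 5.03 CPM). G6pc2, a glucose-6-phosphatase subunit, was also above all controls (8.80 to 39.8 CPM) in Wdr60, at 76.6 ± 10.3 CPM, and below them in Wdr34, at 4.92 ± 0.981 CPM. The pro-apoptotic BH3-only gene Bmf showed that arrangement too, with 44.5 ± 8.48 CPM in Wdr60, 2.89 ± 0.335 CPM in Wdr34 and 7.71 to 29.5 CPM in the controls. Speg, a kinase of striated muscle, gave 71.5 ± 10.8 against 4.37 ± 0.447 CPM. The growth factor Fgf1 gave 46.7 ± 8.34 against 5.46 ± 0.607 CPM. For Lbp, a binder of bacterial lipopolysaccharide, and the ligand Wnt16, Wdr60 lay below 3 of the 4 control clones and Wdr34 below all 4. Wnt16 had 9.44, 11.9, 11.2 and 11.5 CPM in Wdr60, 1.33 ± 0.438 CPM in Wdr34 and 6.73 to 134 CPM in the control clones.

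On the lower side the first gene was Tsnax (chr8:125013041-125034208), which encodes the RNA-processing partner of translin. It had 0, 0.0551, 0.0573 and 0 CPM in Wdr60, 2 counts in 4 libraries, and 27.5, 22.6, 25.4 and 26.4 CPM in Wdr34. The 4 control clones had 17.6 to 41.5 CPM, so that only the Wdr60 clone of these 6 was near 0. The sialomucin Cd34 was at 0.498 ± 0.206 CPM in Wdr60 and 31.2 ± 1.37 CPM in Wdr34 (log2 -5.95 ± 0.18, BH-adjusted p = 3.38e-08). Its control clones ranged from 0.0288 CPM in control 2 to 29.9 CPM in control 3, a span that held the Wdr60 level and ended just under that of Wdr34. Obsl1, a cytoskeletal adaptor, had 0.731, 2.59, 2.86 and 2.51 CPM in Wdr60 against 51.0 ± 4.03 CPM in Wdr34 (log2 -4.53 ± 0.25, BH-adjusted p = 1.08e-06), with controls at 11.9 to 60.6 CPM. Wdr60 alone was low for this gene as for Tsnax. Ldhb, the heart-type lactate dehydrogenase subunit, was at 3.70 ± 1.45 CPM in Wdr60, 37.7 ± 1.89 CPM in Wdr34 and 8.14 to 38.3 CPM in controls. For the guidance protein Sema5a the values were 2.36 ± 0.686 and 32.9 ± 1.98 CPM, with controls at 29.0 to 220 CPM. Ociad2 (log2 -4.32 ± 0.18), the adhesion protein Ntm, the phosphoinositide phosphatase Mtmr7, the selenocysteine lyase Scly and Igfbp7, which binds insulin-like growth factors, were also lower in Wdr60, the last 4 by 5.10-fold to 11.2-fold. Gas1 and Zeb1, which complete the 12, belong to groups described below.

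**Figure D2:**
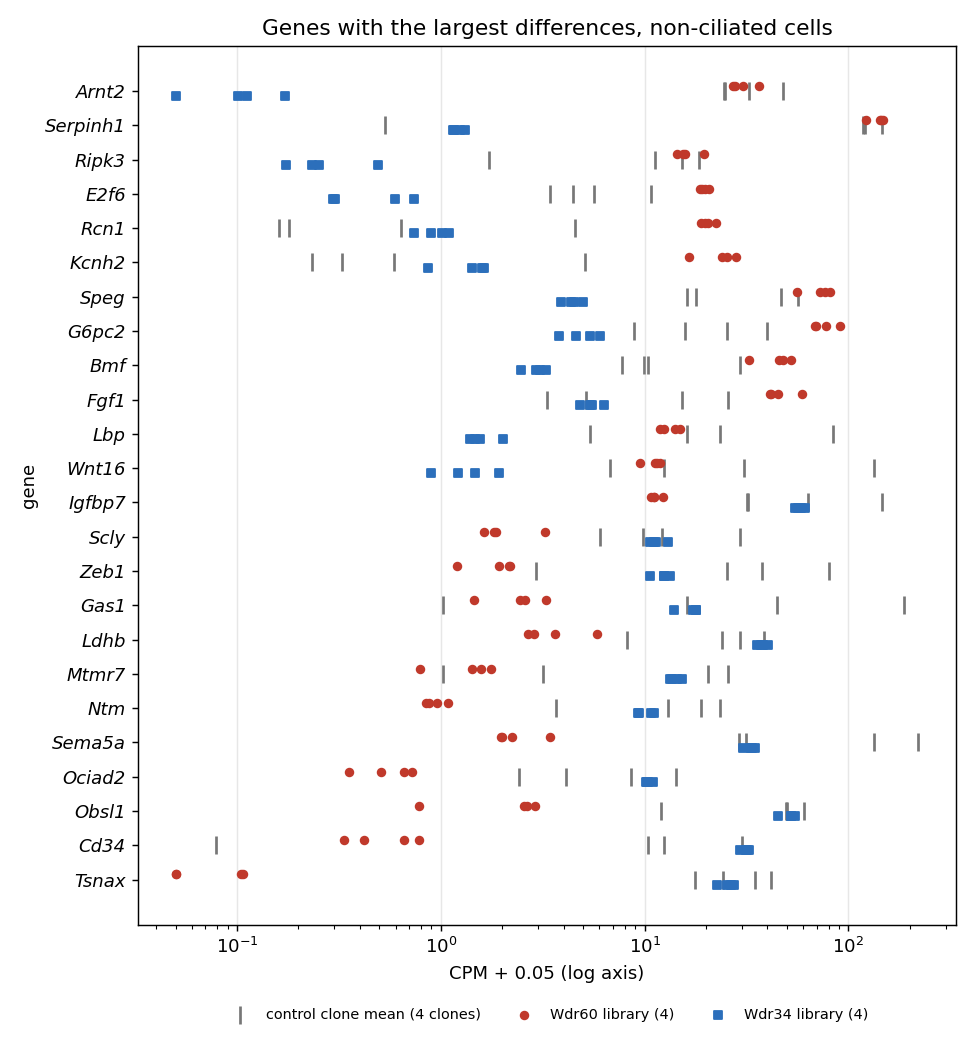
Level of the 24 genes with the largest difference among those of at least 10 CPM (x axis, CPM + 0.05, log scale), with red circles for the 4 Wdr60 libraries, blue squares for the 4 Wdr34 libraries and grey bars for the means of the 4 control clones. The 2 mutants do not overlap for any of these genes, as the rule required, while the control clones lie near Wdr60 (Arnt2), near Wdr34 (Obsl1) or on both sides (Serpinh1, Cd34).

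Some genes were at or near 0 counts in one mutant only. Of the called genes, 14 were near 0 in Wdr34, 8 of them with 0 counts in all 4 libraries, and 12 were near 0 in Wdr60, 3 of them with 0 counts. Folds for those at 0 are lower bounds against a floor of 3 counts over the clone. Cdh13, an atypical GPI-anchored cadherin, had 377 counts in the Wdr60 libraries (8.46, 5.18, 4.64 and 3.86 CPM) and 0 in Wdr34, at least 126-fold higher. In the control clones it varied from 0 CPM in AB to 4.66 CPM in control 3. Cxx1a on chromosome X had 303 and 0 counts (at least 101-fold) and Sept3, a septin, 166 and 0 counts (at least 55.3-fold). For Cxx1a control 1 was also at 0, whereas for Sept3 all control clones had 1.07 CPM or more. In the other direction, Dsel, a dermatan sulfate epimerase-like gene, had 0 counts in Wdr60 and 368 in Wdr34 (5.05, 5.16, 4.60 and 6.74 CPM), at least 123-fold lower. Alcam, a cell adhesion molecule, had 0 and 164 counts (at least 54.7-fold lower), and Tox, an HMG-box factor, 0 and 88 counts (at least 29.3-fold lower). Both were detected in every control clone.

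Neither edited gene passed the test at the mRNA level with all 8 libraries. Wdr34 measured 17.5, 38.4, 35.8 and 33.4 CPM in the Wdr60 clone and 27.2, 27.3, 24.7 and 29.2 CPM in the Wdr34 clone. The libraries overlapped (log2 0.21 ± 0.20 SE, edgeR BH-adjusted p = 0.437), and the lowest of the 8 values was that of Wdr60 replicate 1. Wdr60 measured 24.7, 33.0, 30.3 and 31.0 CPM in the Wdr60 clone and 25.4 ± 0.512 CPM in the Wdr34 clone, which lay inside that range (log2 0.23, BH-adjusted p = 0.0669). It passed the adjusted p at less than 2-fold without Wdr60 replicate 1 (log2 0.31, BH-adjusted p = 2.90e-04). An mRNA level does not check a missense edit, so these values neither bear out nor contradict the labels. Of 14 dynein-2 subunit genes 12 were tested and 0 were called, beside 5.62% of all genes, while Dynlt1c and Dynlrb2 had 0 counts. By adjusted p alone 1 subunit differed, beside 39.3% of all genes. This was the heavy chain Dync2h1, with 22.0 ± 1.60 CPM in Wdr60 and 18.4 ± 0.974 CPM in Wdr34 (log2 0.27 ± 0.08, BH-adjusted p = 0.0277). Which subunits passed depended on the libraries in the fit. Leaving out 1 library gave Dync2h1 an edgeR BH-adjusted p of 0.00605 to 0.0911, and a fit of all 24 non-ciliated libraries gave it 0.237, with Wdr60 (0.0181) and Dynlt3 (0.0184) under 0.05. There were 8 of 12 such subunits without Wdr60 replicate 1, beside 61.3% of all genes. The light chain Dynlt1f had the largest fitted difference of the subunits, at 1.34, 2.54, 1.20 and 2.08 CPM against 0.801, 1.06, 1.57 and 0.425 CPM (log2 0.89 ± 0.37, BH-adjusted p = 0.0841). Its libraries overlapped, and it was called without Wdr60 replicate 1 (log2 1.01) and without Wdr34 replicate 3 (log2 1.21).

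Genes of the IFT trains differed by less than 2-fold. All 7 genes of the IFT-A list had an adjusted p under 0.05, beside 39.3% of all genes, but 0 were called, beside 5.62%. The list holds subunits of IFT-A, the complex that works with dynein-2, and the adaptor Tulp3. Signs were mixed, with 4 of the 7 genes higher in Wdr60. Wdr19 was higher in Wdr60 (55.5 ± 4.43 against 30.2 ± 1.23 CPM, log2 0.89 ± 0.08, BH-adjusted p = 1.55e-05) and Tulp3, an adaptor that brings receptors into the cilium, was lower (67.9 ± 6.26 against 111 ± 2.83 CPM, log2 -0.70 ± 0.07). Of 17 IFT-B subunits tested, 11 passed the adjusted p alone and 0 were called. Examples are Ttc30b (log2 0.89 ± 0.15), Ift81 (log2 0.74 ± 0.12) and Ttc26 (log2 -0.62 ± 0.08). The list medians of 0.40 for IFT-A and 0.20 for IFT-B stood beside 0.01 over all genes.

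Of 15 kinesin-2 and BBSome genes, 1 was called (6.67%, beside 5.62% of all genes). The BBSome subunit Bbs1 had 12.9, 14.3, 13.0 and 14.8 CPM in Wdr60 and 28.4, 24.3, 31.0 and 27.9 CPM in Wdr34 (log2 -1.01 ± 0.10, edgeR BH-adjusted p = 2.90e-05), with controls at 22.5 to 35.4 CPM. It fell below the fold limit without Wdr60 replicate 1, where Bbs7 was called in its place. The transition zone is the gate at the base of the cilium, and of 27 genes in its list 1 was called (3.7%). This was Dcdc2a, whose protein the study places along the ciliary axoneme, so the call is not a result about the gate. Dcdc2a, a doublecortin-domain protein of the cilium, measured 0.304, 0.386, 0.172 and 0.245 CPM in Wdr60 and 1.97, 2.38, 3.02 and 2.85 CPM in Wdr34 (log2 -3.16 ± 0.28, BH-adjusted p = 2.06e-05). Both mutants were below every control clone (3.84 to 76.1 CPM) and Wdr60 was the lower. Without Wdr60 replicate 1, Cc2d2a was called as well.

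In the hedgehog pathway 18 of 29 listed genes were tested, and 1 was called higher and 2 lower (16.7%, beside 5.62% of all genes). Gas1, a co-receptor that binds the hedgehog ligand, had 1.40, 2.54, 2.40 and 3.25 CPM in Wdr60 and 17.9, 13.9, 17.1 and 17.9 CPM in Wdr34 (log2 -2.79 ± 0.20, edgeR BH-adjusted p = 5.20e-06). The control clones ranged from 0.974 CPM in control 3 to 188 CPM in control 2, a wider span than that between the mutants. The transducer Smo, which moves into the cilium on stimulation, was lower in Wdr60 by adjusted p alone (128 ± 20.8 against 206 ± 7.21 CPM, log2 -0.68 ± 0.11). Gli1, a target gene that serves as a readout of the pathway, was near the detection limit. It had 1.04, 0.662, 1.15 and 1.78 CPM in Wdr60 and 0.801, 0.304, 0.315 and 0.425 CPM in Wdr34, 78 and 31 counts in all, with 1 Wdr34 library inside the range of Wdr60 (log2 1.32 ± 0.41, BH-adjusted p = 0.0266). Mycn, which hedgehog signalling can induce, differed in the opposite direction (0.959 ± 0.344 against 2.11 ± 0.389 CPM, log2 -1.13 ± 0.28, BH-adjusted p = 0.00880).

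Of 38 Golgi and vesicle transport genes 2 were called lower, Rab6b and Zdhhc14 (5.26%, beside 5.62% of all genes). Rab6b, a Golgi GTPase, measured 1.10, 1.10, 1.15 and 0.674 CPM in Wdr60 and 2.03, 3.34, 2.71 and 2.91 CPM in Wdr34 (log2 -1.44 ± 0.23, edgeR BH-adjusted p = 8.07e-04). Both mutants lay below all control clones (9.38 to 32.0 CPM). The palmitoyltransferase gene Zdhhc14 was at 0.722 ± 0.252 and 1.54 ± 0.548 CPM, also below the controls (2.40 to 4.89 CPM), and lost its call without Wdr60 replicate 1, where another member of the list was called lower and the count stayed at 2. Of the genes that the study names in both states, a list chosen on these samples and so no independent evidence, 6 of 8 were tested and 5 called, 1 of them higher. The 4 lower ones were Dcdc2a, Rab6b, Zdhhc14 and Pvrl1. Pvrl1 encodes nectin-1, a junction protein, and had 2.25 ± 0.348 CPM in Wdr60 and 6.18 ± 1.12 CPM in Wdr34, both above the control clones (0.0294 to 0.933 CPM). Rgs2, a regulator of G-protein signalling, passed the adjusted p only (log2 0.81 ± 0.28, BH-adjusted p = 0.0428).

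Several targets of actin-dependent transcription were lower in Wdr60. Serum response factor (SRF) with its actin-sensing cofactor, and YAP with TEAD factors, switch on cytoskeletal and matrix genes when cells are stretched or contract. Of 23 tested members of the actin and SRF list, 0 were called higher and 4 lower (17.4%, beside 1.95% lower over all genes), and 21 had an adjusted p under 0.05, beside 39.3% of all genes. The list median was -0.66 against 0.01 over all genes, and 3 members were higher in Wdr60. Tagln, an actin-bundling protein of smooth muscle, measured 0.609, 0.662, 0.344 and 0.552 CPM in Wdr60 and 4.07, 6.38, 4.66 and 3.58 CPM in Wdr34 (log2 -3.10 ± 0.27, edgeR BH-adjusted p = 1.95e-05). Cyr61 (also Ccn1), a secreted matricellular protein, measured 595, 560, 576 and 564 CPM against 1639, 1633, 1626 and 1706 CPM (log2 -1.52 ± 0.05, BH-adjusted p = 3.70e-08). The Wdr60 values lay below and the Wdr34 values above the range of the control clone means (685 to 1297 CPM). Ankrd1, a stretch-induced ankyrin repeat protein, gave 372, 232, 286 and 245 CPM against 713, 768, 726 and 752 CPM (log2 -1.38 ± 0.13, BH-adjusted p = 3.17e-05). Ctgf, the close relative of Cyr61, gave 473 ± 40.4 against 1015 ± 19.5 CPM (log2 -1.10 ± 0.07). The called members did not change without Wdr60 replicate 1.

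The promoters of Cyr61 and Ankrd1 are shown because these abundant members fell together and both genes are known targets of TEAD factors. They are the 300 bases from 250 before to 50 after the start (RefSeq, GRCm38.p6), at chr3:145649936-145650235 and chr19:36119795-36120094, both on the minus strand. Capitals mark GGAATG on either strand, the core letters of the TEAD motif.
Cyr61: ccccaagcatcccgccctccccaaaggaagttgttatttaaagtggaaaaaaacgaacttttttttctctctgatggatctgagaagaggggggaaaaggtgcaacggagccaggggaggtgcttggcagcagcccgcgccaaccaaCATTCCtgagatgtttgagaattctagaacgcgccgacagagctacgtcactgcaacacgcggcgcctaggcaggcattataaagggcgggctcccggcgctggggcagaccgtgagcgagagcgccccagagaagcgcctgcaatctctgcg
Ankrd1: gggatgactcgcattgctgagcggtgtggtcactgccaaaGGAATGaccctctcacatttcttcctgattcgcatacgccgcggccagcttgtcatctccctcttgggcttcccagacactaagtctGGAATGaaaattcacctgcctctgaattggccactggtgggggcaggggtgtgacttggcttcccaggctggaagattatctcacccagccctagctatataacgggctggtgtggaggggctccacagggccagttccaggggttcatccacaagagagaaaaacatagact
Cyr61 has 1 match, whose first base lies at -103 from the start site, and Ankrd1 has 2, at -210 and -123. The letters occur in 14.7% of 32851 promoters of this length and in 9 of the 20 list members with a promoter entry. A match is a description of letters, and binding was not measured. Tagln and Ctgf have no entry.

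Mesenchymal and extracellular matrix genes differed in both directions. Over all genes 3.68% were called higher and 1.95% lower. Of 12 tested mesenchymal markers 4 (33.3%) were called lower in Wdr60 (Tagln, Twist2, Zeb1 and Foxd1) and 0 higher. Zeb1, a repressor of epithelial genes, measured 1.16, 1.87, 2.12 and 2.15 CPM in Wdr60 and 12.5, 13.2, 10.6 and 12.4 CPM in Wdr34 (log2 -2.73 ± 0.17, edgeR BH-adjusted p = 2.67e-06), and the control clones spanned 2.88 to 80.1 CPM. Twist2 gave 8.25 ± 1.48 against 30.4 ± 1.10 CPM, while vimentin (Vim) did not pass the test (log2 -0.17 ± 0.09, BH-adjusted p = 0.150). The summed level of the mesenchymal list overlapped between clones, at 3633 to 4510 CPM in Wdr60 and 3841 to 4078 CPM in Wdr34, and Col3a1, Thy1 and Twist1 had 0 counts. Of 12 collagens tested 3 were called higher and 0 lower. Col5a1, a fibrillar collagen, had 24.9, 43.1, 43.7 and 41.6 CPM in Wdr60 and 6.27 ± 0.948 CPM in Wdr34 (log2 2.61 ± 0.19, BH-adjusted p = 6.65e-06). Col6a1 (log2 1.59 ± 0.13) and Col7a1 (log2 1.30 ± 0.21) were the other 2. Of 20 matrix glycoproteins 4 were called lower (Thbs1, Nid2, Ecm1 and Loxl3) and 0 higher, while 8 of the 20 had positive log2 fold changes and the list median was -0.06. Thbs1, the matricellular thrombospondin 1, measured 350, 252, 278 and 312 CPM in Wdr60 and 1080, 1110, 1068 and 1163 CPM in Wdr34 (log2 -1.89 ± 0.10, BH-adjusted p = 7.31e-07), with Wdr60 below all control clones (502 to 1701 CPM). Among integrins and laminins Itga1 and Itga2 were lower and Lama3 higher, of 19 tested (15.8%). Matrix proteases and inhibitors gave 3 higher and 2 lower of 21 (23.8%), Serpinh1 among the higher, and without Wdr60 replicate 1 Mmp15 was a further higher call.

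The TGF-beta and BMP list held 11 called members of 26 tested (42.3%, beside 5.62% of all genes), 3 higher and 8 lower in Wdr60. Among ligands, Tgfb3 was higher (36.1 ± 3.56 against 16.3 ± 1.88 CPM, log2 1.15 ± 0.10) and so was Bmp4 (8.88 ± 1.42 against 3.67 ± 0.904 CPM, edgeR BH-adjusted p = 3.88e-04). The ligand Tgfb2 (log2 -1.14 ± 0.24) and the activin subunit Inhbb (0.728 ± 0.316 against 4.50 ± 0.542 CPM, log2 -2.63 ± 0.26, edgeR BH-adjusted p = 4.27e-05) were lower. The co-receptor Tgfbr3 measured 33.5, 23.5, 25.1 and 26.1 CPM in Wdr60 and 4.87, 3.80, 6.36 and 5.53 CPM in Wdr34 (log2 2.41 ± 0.17, BH-adjusted p = 4.93e-06). Fst, the activin-binding follistatin, measured 53.7, 34.6, 46.5 and 42.2 CPM against 158, 168, 159 and 158 CPM (log2 -1.85 ± 0.12, BH-adjusted p = 2.55e-06), and Nog, a secreted BMP antagonist, gave 3.28 ± 1.42 against 7.10 ± 1.24 CPM, a call lost without Wdr60 replicate 1, which left 10 of 26. The inhibitors of differentiation Id1, Id2 and Id3, direct targets of BMP signalling, were all lower. Id1 was at 33.0 ± 6.36 against 94.6 ± 7.12 CPM (log2 -1.52 ± 0.13), Id2 at log2 -1.09 ± 0.17 and Id3 at log2 -1.59 ± 0.16. Their control clones spanned more than the gap between the mutants, from 36.3 to 138 CPM for Id1, where the Wdr60 mean lay below all of them.

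Of 21 cytokine and chemokine genes 8 were called (38.1%, beside 5.62% of all genes), 3 higher and 5 lower. The chemokine Ccl28 was at 4.74 ± 1.02 against 0.392 ± 0.0641 CPM (log2 3.57 ± 0.25, edgeR BH-adjusted p = 4.63e-06) and Lcn2, an iron-siderophore binding protein of injured tubules, at 4.12 ± 1.09 against 0.856 ± 0.141 CPM. Lower genes were the chemokines Cxcl1 (log2 -1.58 ± 0.12) and Cxcl10, the growth factors Csf1 and Csf3, and the receptor Il1rl1. Csf3 lost its call without Wdr60 replicate 1 (log2 -1.20 before and -0.94 after), where the receptor Il1r1 was called in its place. Cxcl10 measured 7.67, 5.46, 5.73 and 5.76 CPM in Wdr60 and 18.2, 19.5, 17.8 and 18.6 CPM in Wdr34, above all controls (4.61 to 9.09 CPM) in the latter (log2 -1.59 ± 0.12, BH-adjusted p = 6.95e-06). Csf1 gave 104 ± 7.59 against 228 ± 12.2 CPM. Of 29 interferon-stimulated genes 2 were called higher, Oasl2 (110 against 15 counts over 4 libraries each) and Gbp2 (69 against 19 counts). That share, 6.9%, stood beside 5.62% of all genes. It was 4 of 30 without Wdr60 replicate 1 (13.3%, beside 6.27%), with Irf7 as a further higher gene (log2 1.22) and Oas1a as a lower one (log2 -1.19).

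Growth factor and guidance genes were split between the clones. The list of VEGF, FGF, PDGF and EGF ligands and receptors also holds genes outside these families, among them Met and Igfbp7. Of its 33 tested genes 5 were higher (Figf, Fgf1, Fgf21, Fgfbp1 and Btc) and 3 lower (Nrp2, Met and Igfbp7). That was 24.2% in all, beside 5.62% of all genes. When Wdr60 replicate 1 was left out there were 5 higher and 5 lower, with Fgf18 (log2 -1.14) and Nrg1 (log2 -1.09) added. The EGF-family ligand Btc was at 11.2 ± 1.34 CPM in Wdr60 and 2.78 ± 0.565 CPM in Wdr34 (log2 2.02 ± 0.16, edgeR BH-adjusted p = 8.99e-06), with Wdr60 above all controls (0.444 to 6.77 CPM). Igfbp7 measured 11.3 ± 0.686 CPM against 57.6 ± 2.73 CPM, with all Wdr60 below all Wdr34 libraries (log2 -2.35 ± 0.08, BH-adjusted p = 4.17e-08). Of 41 axon guidance genes 7 were higher and 6 lower (31.7%), with semaphorins on both sides (Sema3a, Sema3b and Sema4a higher, Sema5a, Sema6a and Sema7a lower). The ephrin Efna2 had 5.05, 7.88, 5.15 and 5.03 CPM in Wdr60 and 0.541 ± 0.155 CPM in Wdr34. Leaving out Wdr60 replicate 1 gave the same numbers, but Ntn1 lost its call and Sema3d was called lower. Among 32 Wnt genes 3 were higher (Wnt10a, Fzd8 and Lgr4) and the Wnt antagonist Rnf43 was lower, on 6 against 88 counts (12.5%). Notch ligands moved both ways, Dll1 and Jag2 higher, Jag1 lower, and the target Hey2 was lower, 4 of 14 tested (28.6%). Dll1 and Hey2 were near the detection limit, with 58 against 18 and 10 against 70 counts in Wdr60 and Wdr34. The receptor Notch3 was called higher too without Wdr60 replicate 1.

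Junction and transport genes of the tubule differed in both directions. Of 19 claudin and tight junction genes 4 claudins were higher, Cldn2, Cldn4, Cldn9 and Cldn23, and Pvrl1 was lower (26.3%, beside 3.68% higher and 1.95% lower over all genes). Cldn4, a claudin of the collecting duct, was at 1059 ± 245 against 427 ± 22.4 CPM (log2 1.32 ± 0.15, edgeR BH-adjusted p = 1.09e-04). Cldn23 measured 13.4, 19.4, 20.6 and 19.4 CPM in Wdr60 and 3.64, 3.49, 3.97 and 4.31 CPM in Wdr34, and Cldn9 was at 38.3 ± 10.8 against 10.0 ± 0.422 CPM. For Cldn23 all Wdr60 libraries lay above the control clones (up to 5.73 CPM). For Cldn9 the Wdr60 mean did (controls up to 30.6 CPM), but replicate 1 was at 22.7 CPM. In the collecting duct transport list 6 of 17 tested genes were called (35.3%), the aquaporins Aqp3, Aqp5 and Aqp11 and the mineralocorticoid receptor Nr3c2 higher, Kcnj16 and Car2 lower. Hsd11b2, which inactivates glucocorticoids, passed the expression filter and was called higher once Wdr60 replicate 1 was left out. Car2, cytosolic carbonic anhydrase, measured 0.974, 1.27, 1.09 and 0.981 CPM in Wdr60 and 7.03, 5.92, 6.61 and 7.17 CPM in Wdr34 (log2 -2.61 ± 0.15, BH-adjusted p = 1.62e-06). The potassium channel Kcnj16 gave 0.889 ± 0.415 against 3.03 ± 0.393 CPM, and both mutants were below the control clones (9.82 to 17.7 CPM). Aqp3 was low throughout, with 71 against 11 counts. Cadherins gave 3 higher (Cdh13, Cdh17 and Pcdh1) and 1 lower (Pcdhb18) of 20.

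Among genes of energy and lipid metabolism, several glycolytic genes were lower in Wdr60. Of 28 tested members of the glycolysis and hypoxia list 22 passed the adjusted p, beside 39.3% of all genes, 1 was called higher and 3 lower (Hk2, Pfkfb3 and Tpi1; 14.3% in all, beside 5.62% of all genes), and the median was -0.37. Hk2, the inducible hexokinase, measured 59.6, 60.2, 58.7 and 66.5 CPM in Wdr60 and 183, 189, 173 and 173 CPM in Wdr34 (log2 -1.55 ± 0.06, edgeR BH-adjusted p = 2.04e-07). Control clones lay on both sides of this gap, from 45.3 to 327 CPM. The muscle-type lactate dehydrogenase gene Ldha was lower by less than 2-fold (654 ± 35.6 against 1219 ± 27.1 CPM, log2 -0.89 ± 0.05). Ndrg1, a hypoxia-responsive gene, went the other way (201 ± 6.96 against 84.4 ± 3.41 CPM, log2 1.26 ± 0.05). Of the ER stress and Atf4 list, Atf5, Trib3 and Slc7a11 were higher and Stc2 and Cth lower, of 35 tested (14.3%), and Chac1 was a further higher call without Wdr60 replicate 1. Slc7a11, the cystine transporter, was at 38.2 ± 1.98 against 10.2 ± 0.867 CPM (log2 1.91 ± 0.09, BH-adjusted p = 3.33e-07). Among 31 genes of cholesterol and fatty acid synthesis 1 was called, Scd1, the stearoyl-CoA desaturase. It measured 220.2, 177, 181 and 178 CPM in Wdr60 and 22.7, 22.5, 23.4 and 24.6 CPM in Wdr34, on opposite sides of the control clones (80.0 to 155 CPM) (log2 3.03 ± 0.09, BH-adjusted p = 3.38e-08). Of 27 Nrf2 and metallothionein genes Slc7a11 was higher and Cbr3 lower.

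The proliferation and ribosomal protein lists held no calls. Of 40 proliferation genes 0 were called and 15 passed the adjusted p, and of 46 cytosolic ribosomal protein genes 0 were called and 7 passed it, beside 39.3% of all genes. These numbers were 25 and 22 without Wdr60 replicate 1, beside 61.3%. Pcna, the replication clamp, was higher in Wdr60 by less than 2-fold (265 ± 13.3 against 147 ± 9.83 CPM, log2 0.85 ± 0.07). The p53 targets Zmat3 (40.6 ± 1.57 against 88.9 ± 3.39 CPM, log2 -1.13 ± 0.06, edgeR BH-adjusted p = 8.50e-07) and Ccng1 (68.7 ± 10.2 against 150 ± 4.91 CPM, log2 -1.12 ± 0.09) were the 2 called of 29 genes in the list of G1 cyclins, CDK inhibitors and p53 targets (6.9%, beside 5.62% of all genes), and Plk2 was called lower as well without Wdr60 replicate 1. Among 23 Hox genes tested Hoxd3 was higher. Among 14 imprinted genes Phlda2 was higher and Mest lower (14.3%), and without Wdr60 replicate 1 H19 was lower too. In the list of G-protein signalling regulators 6 of 31 were called (19.4%), with the adenosine receptor Adora2b at 3.60 ± 0.430 against 0.565 ± 0.151 CPM.

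**Figure D3:**
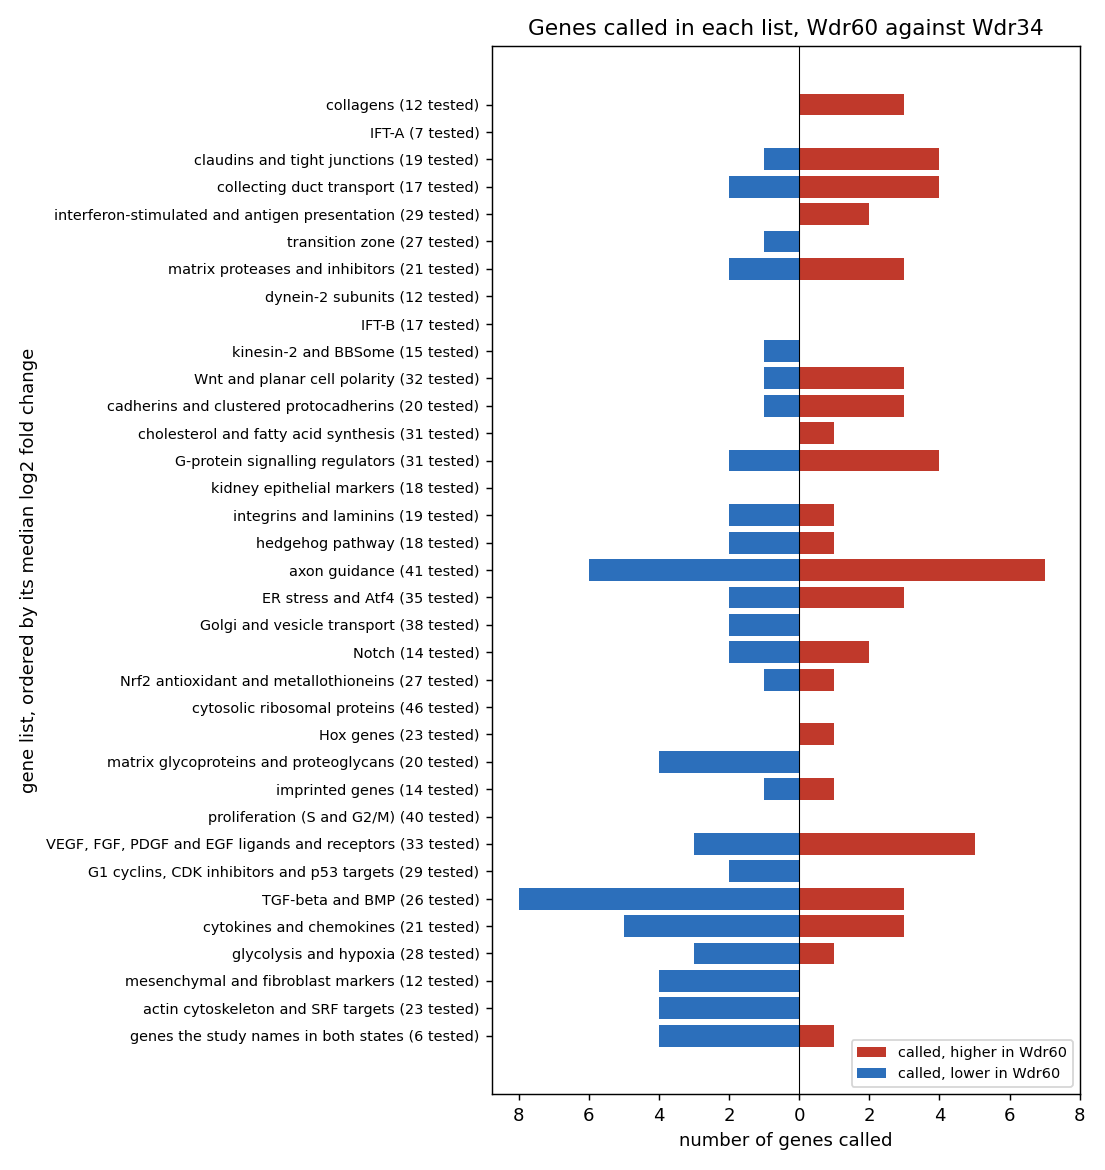
Number of genes called in each list, with genes higher in Wdr60 as red bars to the right of 0 and genes lower in Wdr60 as blue bars to the left, the number tested in brackets and the lists ordered by their median log2 fold change. The TGF-beta and BMP list holds 3 higher and 8 lower genes and the actin and SRF list 4 lower, whereas the dynein-2, IFT-A and IFT-B lists hold 0.

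The contrast was not even along the genome. On 3 chromosomes most genes were shifted a little in 1 direction. The median log2 fold change was -0.37 on chromosome 3 (575 genes tested, 17.0% above 0), -0.43 on chromosome 6 (546 genes, 16.3% above 0) and 0.24 on chromosome 5 (769 genes, 80.8% above 0). On the other autosomes and X, 17 chromosomes in all, it was between -0.04 and 0.08. Without Wdr60 replicate 1 the 3 medians were -0.40, -0.45 and 0.24. In windows of 20 Mb with at least 20 tested genes, all 8 on chromosome 3 had medians of -0.49 to -0.29, all 8 on chromosome 6 of -0.56 to -0.27 and all 8 on chromosome 5 of 0.16 to 0.29. The other 113 windows had medians of -0.09 to 0.18. The shift therefore ran along these chromosomes and not through single gene clusters.

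**Figure D4:**
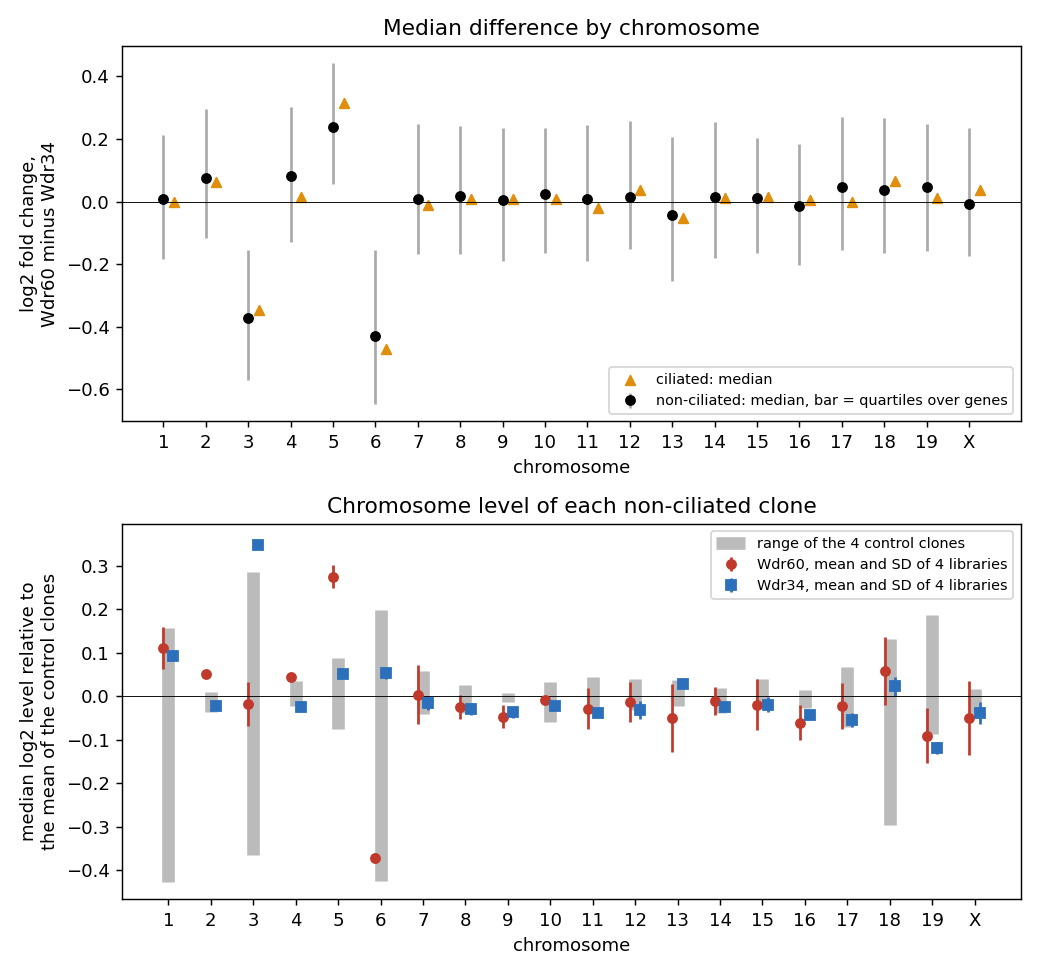
Top, median log2 fold change (Wdr60 minus Wdr34) per chromosome in non-ciliated cells (black circles, bars from the lower to the upper quartile over genes) and ciliated cells (orange triangles). Bottom, median log2 level of each chromosome relative to the mean of the control clones, for Wdr60 and Wdr34 (mean and SD of 4 libraries) and the range of the 4 control clones (grey), in which chromosomes 3, 5 and 6 separate the mutants.

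Set against the mean of the 4 control clones, the clones departed on different chromosomes. On chromosome 3 the median gene was higher in Wdr34, by 0.35 ± 0.009 on the log2 scale (SD over 4 libraries), and at -0.02 ± 0.051 in Wdr60. On chromosome 5 it was higher in Wdr60 (0.28 ± 0.027) than in Wdr34 (0.05 ± 0.008), and on chromosome 6 it was lower in Wdr60 (-0.37 ± 0.012) than in Wdr34 (0.05 ± 0.012). Control clones showed shifts of similar size, from -0.36 to 0.29 on chromosome 3 and from -0.42 to 0.20 on chromosome 6, but only from -0.07 to 0.09 on chromosome 5. The 3 chromosomes held 133 of the 658 calls among their 1890 tested genes (7.04%), against 525 of 9808 (5.35%) elsewhere. By adjusted p alone the shares were 59.2% and 35.5%. Genes named above lie on all 3, among them Cyr61, Car2 and Zmat3 on chromosome 3, Kcnh2, Tgfbr3 and Btc on chromosome 5, and Ldhb and Hk2 on chromosome 6, each different in the direction of its chromosome's shift. Other named genes there went against it. Examples are Slc7a11 and Gbp2 on chromosome 3 and Wnt16 on chromosome 6, higher in Wdr60, and Igfbp7, Cxcl10 and Ociad2 on chromosome 5, lower in Wdr60. Chromosome copy number was not tested.

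The same contrast was available in ciliated cells, between 4 WDR60 libraries and 4 libraries of the clone labelled WDR341, none of which entered the fit above. The labels give that clone no allele and do not say whether it is the non-ciliated Wdr34 clone. Of 11884 genes tested 632 (5.32%) were called, 375 higher and 257 lower in WDR60. Of the 430 genes higher in non-ciliated Wdr60, 399 were tested in ciliated cells, where 139 were called in the same and 4 in the opposite direction. Those 139 are 32.3% of the non-ciliated and 37.1% of the ciliated calls. Of the 228 lower genes 202 were tested, with 112 called in the same direction (49.1% and 43.6%) and 5 in the opposite one. Over all 11498 genes tested in both states 64.1% had the same sign, and the log2 fold changes correlated across genes with Pearson r = 0.695 and Spearman rho = 0.414. Each point is a gene, and genes are not independent replicates. The chromosome medians were -0.35 on chromosome 3, -0.47 on chromosome 6 and 0.31 on chromosome 5 in ciliated cells, against -0.05 to 0.06 on the other autosomes and X. In ciliated WDR60 the libraries agreed less with each other (mean r 0.972 to 0.983) than in WDR341 (0.995 to 0.996).

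**Figure D5:**
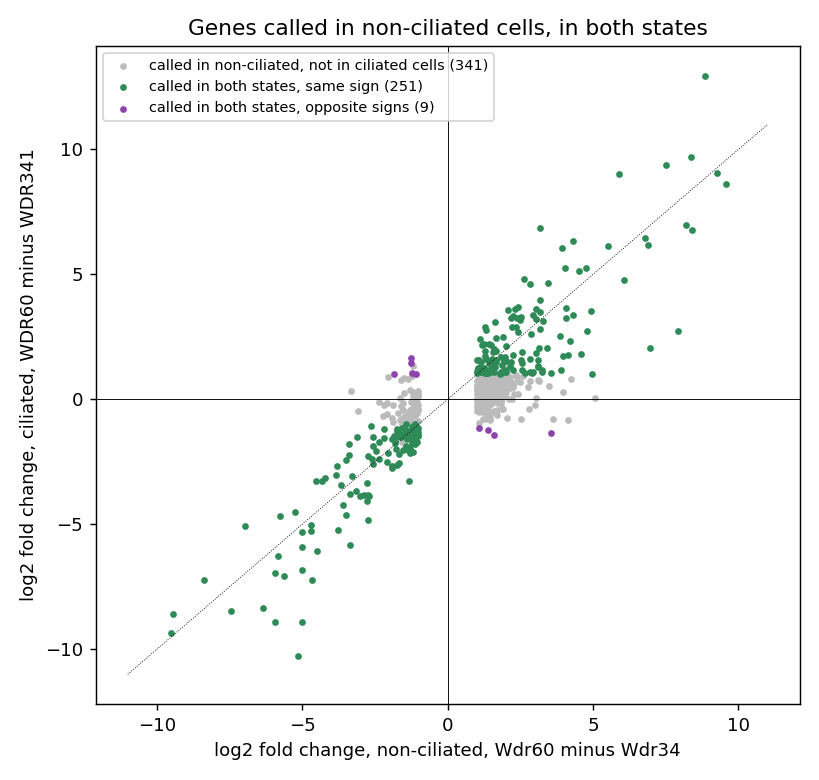
Log2 fold change of the contrast in ciliated cells (WDR60 minus WDR341, y axis) against that in non-ciliated cells (Wdr60 minus Wdr34, x axis) for genes called in non-ciliated cells and tested in both, with the line of equal values dotted. Green points are the 139 higher and 112 lower genes called with the same sign in both states, purple points the 9 called with opposite signs and grey points those not called in ciliated cells.

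Several of the largest differences were found in both states. Serpinh1 stood at 133 ± 34.2 CPM in ciliated WDR60 and 1.83 ± 0.743 CPM in WDR341, and Tsnax at 0.0666 ± 0.0499 against 29.6 ± 2.36 CPM. Arnt2 had 56.8 ± 1.99 CPM in WDR60 and 0 counts in all 4 WDR341 libraries. Cdh13, Cxx1a and Sept3 were again at 0 in the Wdr34 mutant, and Dsel and Tox at 0 in WDR60. Mrc2, a collagen-binding endocytic receptor, was at 9.36 ± 1.97 against 0.0472 ± 0.0945 CPM in non-ciliated cells and at 4.83 ± 1.79 CPM against 0 in ciliated cells. Tspyl5 was near 0 in Wdr60 in both states (1 count in non-ciliated cells and 0 in ciliated cells). Scd1 (91.1 ± 13.4 against 9.78 ± 0.685 CPM) and Ldhb (3.20 ± 0.422 against 44.4 ± 1.26 CPM) also kept their direction.

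The difference of the contrast between states was tested as an interaction over 16 libraries, and 577 of 12171 genes (4.74%) were called. Of the 23 tested genes of the actin and SRF list 5 were among them, Tagln, Cyr61, Ankrd1, Ctgf and Tpm1. Some other lists held more, with 12 of 41 axon guidance genes, 10 of 33 genes of the growth factor list and 9 of 35 ER stress and Atf4 genes. Tagln differed by log2 -3.10 in non-ciliated cells and -0.46 in ciliated cells (interaction -2.64, edgeR BH-adjusted p = 6.51e-04), Cyr61 by -1.52 and -0.41 (interaction -1.12, BH-adjusted p = 3.32e-04) and Ankrd1 by -1.38 and 0.83 (interaction -2.21, BH-adjusted p = 1.35e-05). In ciliated cells Ankrd1 stood at 158 ± 47.0 CPM in WDR60 and 88.9 ± 7.14 CPM in WDR341. Thbs1 (interaction -1.67) and Fst (interaction -2.87, BH-adjusted p = 2.42e-08) were called lower in non-ciliated Wdr60 but not in ciliated WDR60. There Thbs1 was lower without a call (log2 -0.22) and Fst was higher (13.9 ± 1.61 against 6.90 ± 0.608 CPM). Bmf, 15.5-fold higher in non-ciliated Wdr60, stood at 127 ± 13.3 against 105 ± 7.87 CPM in ciliated cells (interaction 3.66, BH-adjusted p = 5.68e-09). Igfbp7 was at 115 ± 36.8 against 125 ± 4.03 CPM in ciliated cells. Of the 9 genes called in opposite directions, the largest interaction was that of the serine protease Tmprss6, at log2 3.56 in non-ciliated cells on 76 against 6 counts and -1.36 in ciliated cells (10.1 ± 1.18 against 25.9 ± 2.63 CPM, interaction 4.91, BH-adjusted p = 5.67e-06). Fgf21 (log2 1.61 and -1.43) and Tmem130 (log2 -1.26 and 1.68) were the next. The study's methods describe serum starvation of ciliated cells, whereas the labels give the same serum for all libraries, so serum and state cannot be told apart here, and for Wdr34 neither can a change of clone.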

How the data were processed

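RNA sequencing of 8 non-ciliated libraries, 4 technical replicates each of 1 Wdr60 and 1 Wdr34 mutant clone, was analysed. Groups came from the sample labels. Reads were mapped by the authors to the mouse build GRCm38/mm10 using Rsubread (R 3.4.4), then summed over gene symbols by featureCounts, and DESeq2 1.18.1 served for their own tests. The deposited values are raw counts for 24421 symbols without normalization. The strand setting and the treatment of reads that map to several genes are not given in the sources used here, so counts of overlapping genes and near-identical copies are uncertain. Symbols were matched to RefSeq GRCm38.p6 genes (99.5%) and guides to transcripts of GENCODE vM21.

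Tests used edgeR 4.0.16 under R 4.3.3 (filterByExpr, TMM, glmQLFit and glmQLFTest, 2-sided), with limma 3.58.1 and DESeq2 1.42.0 as alternatives. Calls needed both an adjusted p under 0.05 (BH) and a difference of 2-fold or more. Standard errors are the fold change divided by the square root of F. CPM were TMM-scaled over the 24 non-ciliated libraries, and over 8 libraries for ciliated cells. The fit was tested on simulated data, and the outcome is not reported here. In all, 32 of 52 libraries were used: these 8, 16 of control clones and 8 ciliated ones. Chromosome levels are medians over genes of log2(CPM + 0.5).

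Genes named in the text were the dynein-2 subunits, the genes the study names in both states, the 12 largest non-overlapping differences per direction at 10 CPM or more, up to 3 called genes per list, the 5 largest per direction shared by both states and the 3 largest opposite ones. Other list members were chosen after their values were seen. The comparison and the 39 gene lists were chosen with earlier results of these data known. The list of Y-linked genes gave 0 calls of 4 tested, but 2 further genes on that chromosome, Rbmy and Gm21693, were called higher in Wdr60. No X-inactivation gene was tested. Alternatives were another tool, size factors, filter, sample set, threshold, a replicate block and leaving out each library. Leaving out Wdr60 replicate 1 for lists and chromosomes, and AB replicate 1 for control pairs, was added after seeing the data. At least 1 listed gene is not reported here by name.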

Additional observations from a re-analysis of the deposited data

Results flagged for a closer look

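Of 228 groups of 4 libraries (114 named genes in each clone), 14 held a library far from the other 3 by Dixon's criterion, where chance flags about 1 in 20. In the Wdr60 clone replicate 1 was that library for 7 genes. It was the low one for Dynll2 (106 CPM), Obsl1 (0.731 CPM), Col5a1 (24.9 CPM) and Cldn23 (13.4 CPM), and the high one for Dynlrb1 (132 CPM), Cxcl10 (7.67 CPM) and Scd1 (220.2 CPM). Of the 8 libraries, Wdr60 replicate 1 had the deviation that followed GC content most closely (Spearman rho = -0.70). That of Wdr34 replicate 4 (rho = -0.44) followed it too. The rho of 0.50 to 0.61 for Wdr60 replicates 2 to 4 rests on sister means that include replicate 1. Replicate 4 of Wdr60 was apart for Rab6b (0.674 CPM), Sema5a (3.37 CPM) and Scly (3.19 CPM) and replicate 2 for Efna2 (7.88 CPM). In the Wdr34 clone replicate 4 was apart for Dynll1 (417 CPM) and Cyr61 (1706 CPM) and replicate 2 for Fst (168 CPM).

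The contrast differed between non-ciliated and ciliated cells by the interaction test for 42 of 107 named genes with values in both states (edgeR, BH-adjusted p under 0.05 and a log2 difference of at least 1), beside 4.74% of all genes. Most of the named genes were chosen for a large non-ciliated difference, so their share is no result about them. Values are the non-ciliated minus the ciliated log2 fold change. Among genes higher in non-ciliated Wdr60, the contrast was larger there for Bmf (3.66), Ccl28 (2.50), Kcnh2 (2.35), Trib3 (2.30), Lbp (2.29), G6pc2 (2.24), Tgfbr3 (2.17), Lcn2 (2.05), Gbp2 (2.01), Cdh17 (1.73), Adora2b (1.60), Fgf1 (1.53), Ndrg1 (1.51), Efna2 (1.33), Ripk3 (1.29), Wnt16 (1.19), Cldn9 (1.19) and Btc (1.05). It was larger in ciliated cells for Arnt2 (-4.04, a value that rests on 0 counts in WDR341 and so depends on the prior count), Col5a1 (-2.20), Col7a1 (-1.60) and Speg (-1.22). Among genes lower in non-ciliated Wdr60, it was larger there for Fst (-2.87), Tagln (-2.64), Pfkfb3 (-2.34), Igfbp7 (-2.25), Ankrd1 (-2.21), Thbs1 (-1.67), Inhbb (-1.58), Cxcl10 (-1.35), Obsl1 (-1.30), Mycn (-1.21), Mtmr7 (-1.15), Sema5a (-1.15), Cyr61 (-1.12), Ntm (-1.08) and Ociad2 (-1.07), and in ciliated cells for Adgre5 (1.92) and Gas1 (1.25). Tmprss6 (4.91), Fgf21 (3.03) and Tmem130 (-2.94) were called with opposite signs in the 2 states, as was Fst. Pfkfb3, Ankrd1, Trib3, Ndrg1, Gbp2 and Mycn had fitted values of opposite sign without a call in ciliated cells. The labels do not say whether the ciliated and the non-ciliated Wdr34 clone are the same.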

How the results depend on the processing

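Against 430 higher and 228 lower genes in the comparison of Wdr60 with Wdr34, DESeq2 called 434 and 230, limma voom 426 and 239, RLE size factors 428 and 228, a fit of all 24 non-ciliated libraries 523 and 300, a filter of 1 count in any library 594 and 303, and an adjusted p under 0.01 379 and 209. Counts moved by over 1.5 times with a filter of at least 10 counts in every library (266 and 141), with glmTreat against a log2 fold change of 1 (180 and 107) and with an adjusted p under 0.05 alone (2348 and 2254). The first tests fewer genes and the others move the threshold by construction. Leaving out 1 library gave 406 to 483 higher and 231 to 256 lower genes. A gene called in opposite directions was found in 0 of the 18 alternatives. With the replicate number as a block there were 415 and 225 calls, 409 and 221 of them shared, but same-numbered libraries did not deviate together (correlations of -0.29, 0.10, 0.02 and -0.38), so the numbers are not a pairing. In ciliated cells 632 calls became 656 with DESeq2, 747 with the filter of 1 count and 609 with the block, and the 577 interactions became 618, 590 and 520. With an adjusted p alone the control pairs gave 8970 genes for 1 and 2, 6599 for 1 and 3, 4769 for 1 and AB, 8876 for 2 and 3, 6493 for 2 and AB and 3857 for 3 and AB. Of 1704 values of the 97 called named genes under the alternatives 1655 kept their call, 49 lost it and 0 changed sign, and of 233 values of 13 named genes that were not called 5 became calls. Depth limits genes below about 1 CPM, which rest on at most 19.8 counts a library of the 2 mutants, and replicate libraries of 1 clone per genotype do not measure the spread between clones.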
